A study of Homo sapiens with 6 samples.

Results

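MYC and the genes whose proteins pair with MAX were followed through all their probe sets on an expression array. A probe set is a group of probes that reads 1 stretch of a transcript. Of the 49372 probe sets in the deposited table, 41 carried MYC, MYCN, MYCL, MAX, MXD1, MXD3, MXD4, MXI1, MNT or MGA as their single gene symbol. The cells were ARPE-19, an established human line from retinal pigment epithelium. By the treatment protocol, cells at 90% confluence were transfected with GFP. Glucose oxidase at 10 mU/ml was added 48 h later and left for 3 h in the 3 samples of the 3 h group, while the 3 samples of the 0 h group had none. Glucose oxidase releases hydrogen peroxide while it oxidises the glucose of the medium. The descriptions of the 3 h samples name another transfected construct, GFP with alpha satellite, a centromeric repeat, so that construct and treatment cannot be told apart. The labels give no separate cultures for the replicates, so the p-values measure only the spread between these arrays, which may be technical. Fewer transcripts per cell and fewer expressing cells cannot be told apart in such bulk RNA.

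MYC is a transcription factor that binds DNA only as a dimer with MAX, through a basic helix-loop-helix and leucine zipper region. MYC-MAX dimers recognise the E-box, whose classical form is CACGTG, and activate genes of growth, ribosome assembly and nucleotide synthesis. MXD1, MXI1, MXD3, MXD4, MNT and MGA compete for MAX and form dimers that mostly repress, the MXD proteins and MNT by recruiting the SIN3 corepressor. MYC mRNA and protein are both short-lived, and MYC is one of the immediate early genes that respond quickly to mitogens and stress.

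The promoter windows of MXD4 and MNT are shown because they hold the E-box read by the network itself. Each window runs from 250 bases before to 50 bases after the annotated start, 5′ to 3′ on the gene's strand, from RefSeq on GRCh38.p14, with CACGTG in capitals. The MXD4 window lies at chr4:2262060-2262359 on the minus strand and the MNT window at chr17:2401011-2401310 on the minus strand.
MXD4: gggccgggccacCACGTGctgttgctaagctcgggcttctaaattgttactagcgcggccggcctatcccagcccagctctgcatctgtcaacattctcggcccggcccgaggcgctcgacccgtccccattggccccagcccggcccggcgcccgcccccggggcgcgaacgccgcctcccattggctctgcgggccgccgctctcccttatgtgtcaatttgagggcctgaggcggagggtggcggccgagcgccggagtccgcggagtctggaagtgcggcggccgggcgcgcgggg
MNT: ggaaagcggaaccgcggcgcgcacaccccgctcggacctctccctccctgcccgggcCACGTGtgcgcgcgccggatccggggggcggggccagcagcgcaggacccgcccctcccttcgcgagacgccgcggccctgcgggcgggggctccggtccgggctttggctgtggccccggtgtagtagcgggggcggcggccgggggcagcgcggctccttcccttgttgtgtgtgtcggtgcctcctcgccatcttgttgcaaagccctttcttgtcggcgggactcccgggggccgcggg

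The motif begins 238 bases before the start in MXD4 and 193 bases before it in MNT. CACGTG reads the same on both strands. These were the only matches in the 14 windows found for 9 of the 10 genes, against 2548 of 35116 windows of this length in the table (7.26%). By gene, 2 of 9 (22.2%) held a match, against 8.77% of all 27305 genes. MAX and MGA, with 2 and 3 windows, and MXI1, with 3, held no match. A match is a description of the sequence only, and binding was not measured here.

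MYC was higher after 3 h of glucose oxidase, and so were probe sets of its antagonists MXD4 and MNT. MAX was mixed, with 2 of 9 tested probe sets called higher, 1 lower and 6 not called. Of 2 tested MGA probe sets, 1 was lower. Of the 41 probe sets, 26 had a mean of at least 4.64 on the log2 scale, the floor for testing, and 15 lay under it. Of the 26, 7 rose, 2 fell and 17 were not called by limma at an adjusted p under 0.05. Over all 29576 probe sets tested, 25.6% were called higher and 25.8% lower, so that a call in itself does not set a member apart. The share of members called was 34.6%, against 51.4% of all tested probe sets. Groups did not overlap for 11 higher and 3 lower of the 26, and for 60.6% of all tested probe sets (30.1% higher and 30.5% lower). At an adjusted p under 0.01, 4 members rose and 2 fell, against 17.6% and 17.4% of all tested probe sets. With a change of at least 1.5-fold besides the call, 2 rose and 1 fell, against 6.72% and 4.51% of all. These were MXD4 11747171_a_at and MNT 11744056_at, which rose, and MGA 11758283_s_at, which fell. MYC (1.41-fold) and MAX 11728150_at (1.42-fold) did not reach this size. The median log2 change was 0.12 over the 26 and 0.01 over all tested, and the median size of a change was 0.15 for the 26 and 0.22 for all.

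**Figure D1:**
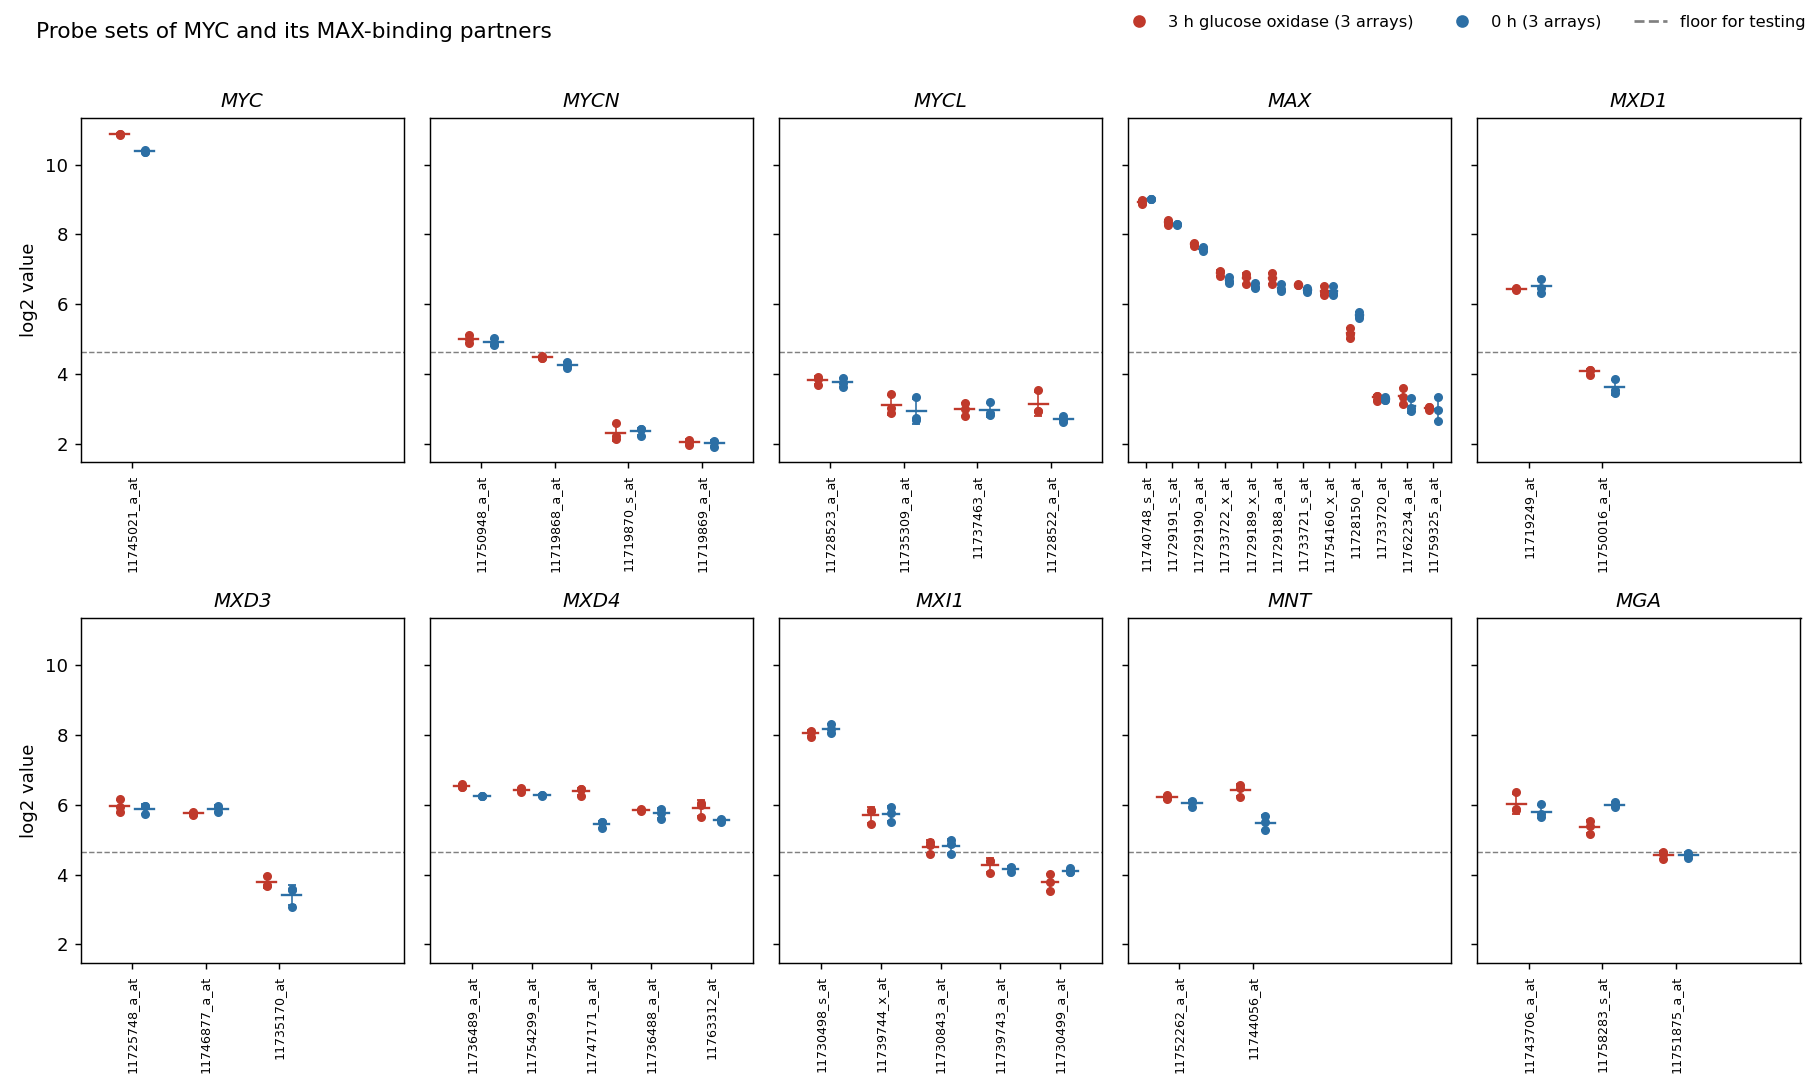
Log2 value of each of the 41 probe sets (x axis, in order of mean level within a gene) on the 3 arrays at 3 h (left, red) and the 3 arrays at 0 h (right, blue), with bars for mean ± SD and a dashed line at the floor of 4.64. MYC stands above its 0 h values on all 3 h arrays, and all 4 probe sets of MYCL lie under the floor.

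The arrays of the groups differed in general as well. Correlations across probe sets were 0.996 to 0.997 within 3 h, 0.997 within 0 h and 0.987 to 0.99 between the groups. All 24 poly-A spike probe sets and 17 of 18 hybridization spike probe sets were lower on every 3 h array, with median log2 changes of -0.60 and -0.31. For actin, the log2 value at the 5′ end minus that at the 3′ end, a sign of RNA and label quality, was -1.24 to -1.13 at 3 h, against -2.11 to -1.99 at 0 h (two-sided exact permutation p = 0.1, the smallest that 3 against 3 arrays allow). These differences move with every result given here, and their part in it was not tested. Of 11 markers of retinal pigment epithelium, 8 lay above the floor, with 4 called higher and 1 lower, and the summed linear level of the list was 10400 to 11000 at 3 h, against 8310 to 8580 at 0 h. The keratin genes KRT8 and KRT18, which simple epithelia in general express, made up 89.7% to 91.6% of that sum on each array, and the other 9 markers summed to 910 to 998 at 3 h, against 828 to 852 at 0 h. The defining visual cycle genes RPE65 and RLBP1 (means of 3.48 and 4.20 in each group) and the pigment gene TYRP1 lay under the floor. MITF (means of 8.48 at 3 h and 8.15 at 0 h) and OTX2 (8.56 and 8.37) lay above it and were called higher. SERPINF1 was called lower (5.71 at 3 h and 6.12 at 0 h), and BEST1, TTR and PMEL lay above the floor but were not called. Of 6 blood and endothelial markers, 4 lay above the floor and 0 were called in limma, with a summed level of 412 to 438 at 3 h and 422 to 441 at 0 h (1 of the 4, CD3E, had an unadjusted p under 0.05). PTPRC, the pan-leukocyte marker, and CDH5 were under the floor. CD68 had the highest level of this list, with means of 8.20 at 3 h and 8.25 at 0 h. Of 4 photoreceptor and neuronal markers measured, 3 lay above the floor and 2 were lower, with summed levels of 165 to 176 at 3 h and 191 to 198 at 0 h.

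The MYC probe set, 11745021_a_at, read 10.85, 10.89 and 10.88 on the 3 h arrays and 10.35, 10.41 and 10.37 on the 0 h arrays. All 3 h arrays stood above all 0 h arrays, and the spread within a group (SD 0.017 at 3 h and 0.028 at 0 h) was far smaller than the gap. The log2 change was 0.50 (SE 0.055, 95% interval 0.37 to 0.62, n = 3 each), a 1.41-fold rise with an adjusted p of 0.000222 in limma. It was called under each of the 13 other settings that refitted it, with values of 0.46 to 0.51. MYC has a single probe set here, so its change has no second reading from another stretch of the transcript. The profiles most like that of MYC over the 6 arrays, each centred on its mean, were those of GCN1, DPYSL2 and CHMP4B, with root mean square differences of 0.0178, 0.0213 and 0.0219 on the log2 scale. Of 12050 genes compared, 715 lay within 0.1 of it, so such a profile was common.

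The paralogues that stand in for MYC in neural and other tissues gave little signal. MYCN, the neuroblastoma oncogene, had 1 of 4 probe sets above the floor, at 5.13, 5.02 and 4.90 at 3 h and 4.85, 5.03 and 4.84 at 0 h. These groups overlapped, and the log2 difference was 0.11 with a 95% interval of -0.08 to 0.30 (adjusted p = 0.291 in limma). The other MYCN probe sets had group means of 2.03 to 4.48. All 4 probe sets of MYCL, the paralogue first found amplified in lung cancer, lay under the floor, with means of 2.99 to 3.83 at 3 h and 2.70 to 3.76 at 0 h, and 0 of them were called in limma when all probe sets were fitted without a floor, a fit that called 15.9% of all 49293 probe sets higher and 15.6% lower. At an unadjusted p under 0.05, 1 of the 4 was higher in that fit, 11728522_a_at, with means of 3.15 at 3 h and 2.70 at 0 h (adjusted p = 0.0573).

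MAX, the shared partner of the network, was read by 12 probe sets, 9 of them above the floor, and these did not move as one. Its highest-level probe set, 11740748_s_at, read 8.87, 8.99 and 8.91 at 3 h and 9.02, 9.01 and 9.02 at 0 h. The groups did not overlap, yet the log2 difference of -0.09 (95% interval -0.23 to 0.04) was not called in limma (adjusted p = 0.208). By contrast, 11728150_at read 5.03, 5.14 and 5.33 at 3 h and 5.77, 5.67 and 5.60 at 0 h. Every 3 h array was lower than every 0 h array, a log2 change of -0.51 (SE 0.087, n = 3 each, adjusted p = 0.00167 in limma), or 1.42-fold. Within arrays, the change of 11728150_at was 0.42 further down than that of 11740748_s_at on the log2 scale (value -0.42, groups without overlap, two-sided exact permutation p = 0.1, the smallest possible). Since 11728150_at was picked for its large change, this p-value is no support for a difference.

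The remaining MAX readings lay above 0 by small amounts. 11729188_a_at read 6.59, 6.75 and 6.90 at 3 h and 6.39, 6.45 and 6.59 at 0 h, and rose by 0.27 on the log2 scale (adjusted p = 0.0360 in limma). Its lowest 3 h array met the highest 0 h array to 2 decimals. 11733722_x_at read 6.96, 6.80 and 6.92 at 3 h and 6.61, 6.68 and 6.77 at 0 h, and rose by 0.20 (adjusted p = 0.0387). Both calls lay near the threshold. Each was held under 2 of the 6 fits that left out 1 array. Neither was held in limma without a floor (adjusted p = 0.0646 and 0.0784) or with median centring (adjusted p = 0.0625 and 0.0780). The call of 11733722_x_at was also lost with quantile normalization (adjusted p = 0.0743) and with the replicate number as a block (adjusted p = 0.0671). The call of 11729188_a_at was lost when replicate 2 (0.27) or 3 (0.20) at 3 h or replicate 1 (0.23) or 2 (0.26) at 0 h was left out, and that of 11733722_x_at without replicate 1 (0.17) or 3 (0.19) at 3 h or replicate 1 (0.16) or 2 (0.20) at 0 h. The other 5 tested MAX probe sets had log2 differences of 0.01 to 0.22 and were not called. Of 7120 genes with at least 2 tested probe sets of their own, 431 (6.05%) had calls in both directions, MAX among them. With all its probe sets averaged, MAX stood at 0.06 on the log2 scale (adjusted p = 0.331). The profiles most like that of 11740748_s_at were those of GLRX2, RPL18 and YAP1, with root mean square differences of 0.0117, 0.0163 and 0.0182 over the 6 arrays, and 3212 of the 12050 genes lay within 0.1.

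**Figure D2:**
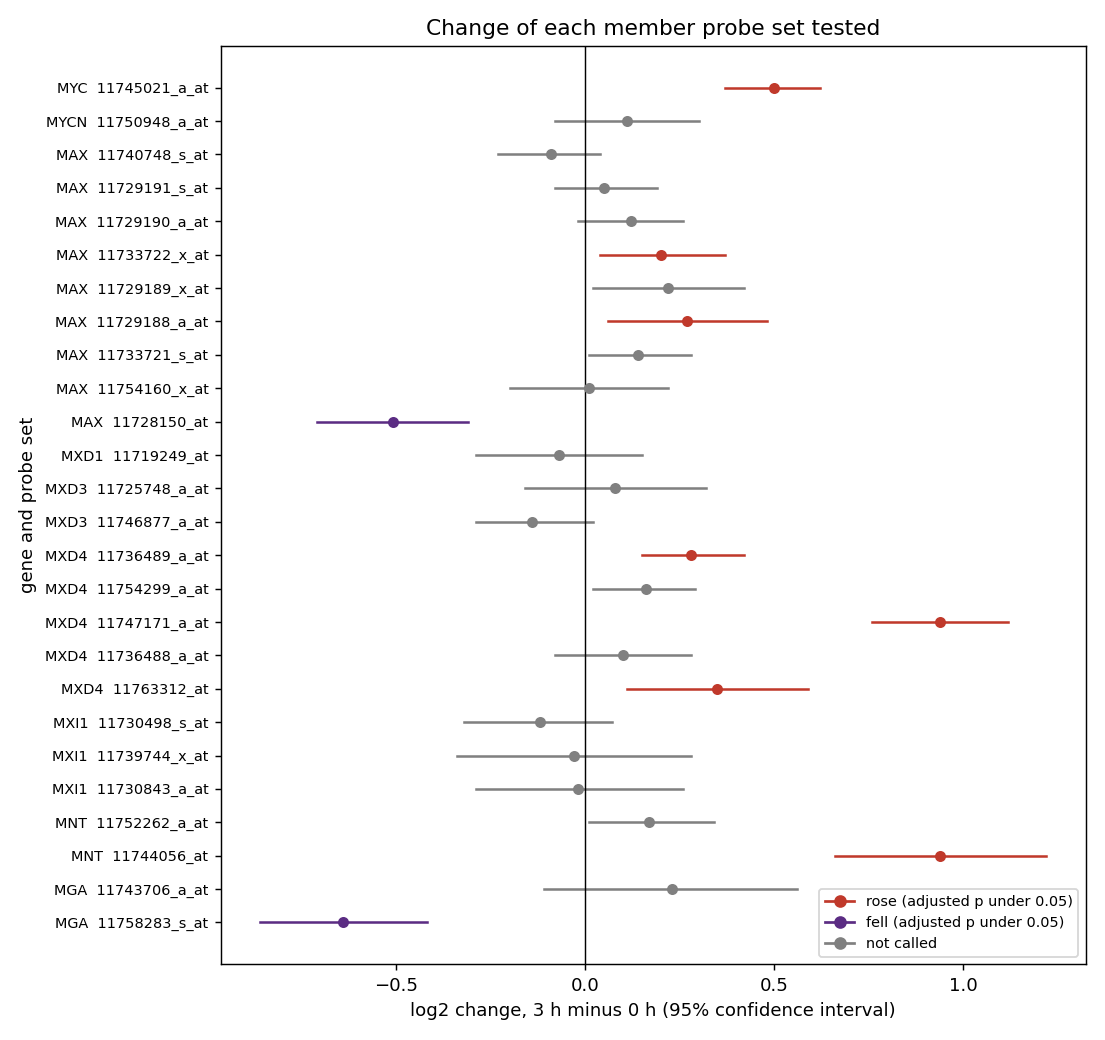
Log2 change (3 h minus 0 h, x axis) with its 95% confidence interval for each of the 26 tested probe sets, grouped by gene from MYC at the top to MGA at the bottom. MXD4 11747171_a_at and MNT 11744056_at lie at 0.94, MYC at 0.50, MAX 11728150_at at -0.51 and MGA 11758283_s_at at -0.64.

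Among the MXD repressors, which are best known from differentiating and resting cells, calls were made for MXD4 alone, although the differences between the MXD genes were not tested. MXD4 had 5 probe sets, all above the floor, of which 3 rose and 2 were not called. The largest change was that of 11747171_a_at, which read 6.44, 6.26 and 6.44 at 3 h and 5.50, 5.50 and 5.32 at 0 h. The groups were far apart, with a log2 change of 0.94 (SE 0.079, 95% interval 0.76 to 1.12, n = 3 each, adjusted p = 7.26e-05 in limma), or 1.92-fold. The changes were smaller on the other probe sets. 11736489_a_at read 6.5, 6.51 and 6.60 at 3 h and 6.25, 6.25 and 6.26 at 0 h, and rose by 0.28 (adjusted p = 0.00407). 11763312_at read 6.06, 6.0 and 5.65 at 3 h and 5.56, 5.60 and 5.51 at 0 h, a rise of 0.35 (adjusted p = 0.0229) that was called in 2 of the 6 fits leaving out 1 array. That call ended without replicate 1 (0.27) or 2 (0.30) at 3 h and without replicate 1 (0.35) or 3 (0.32) at 0 h. The last pair, 11754299_a_at and 11736488_a_at, differed by 0.16 and 0.10 and missed the threshold (adjusted p = 0.0525 and 0.330). Thus 4 of the 5 stood without overlap above 0 h, which 30.1% of all tested probe sets did. The change of 11747171_a_at exceeded that of 11736489_a_at by 0.66 on the log2 scale within arrays (two-sided exact permutation p = 0.1, the smallest possible). Here too the probe set was picked for its large change, so the p-value is no support for a difference. Averaged over its probe sets, MXD4 rose by 0.37 (adjusted p = 0.000172).

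MXD1, the founding member that is induced when myeloid and epithelial cells differentiate, read 6.45, 6.46 and 6.42 at 3 h and 6.48, 6.73 and 6.33 at 0 h through 11719249_at. The groups overlapped, with a log2 difference of -0.07 and a 95% interval of -0.29 to 0.15 (adjusted p = 0.564 in limma). MXI1, also called MXD2, had 3 tested probe sets with differences of -0.12 to -0.02 on the log2 scale, all with overlapping groups. Its highest-level one, 11730498_s_at, read 7.95, 8.09 and 8.12 at 3 h and 8.17, 8.32 and 8.05 at 0 h, with a 95% interval of -0.32 to 0.07. MXD3, which in mouse is tied to S phase, had 2 tested probe sets, at 0.08 (95% interval -0.16 to 0.32) and -0.14 (95% interval -0.29 to 0.02).

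MNT, the most widely expressed antagonist of MYC, had 2 probe sets, 1 of them called higher. Both stood without overlap above 0 h, as did 30.1% of all tested probe sets. 11744056_at read 6.48, 6.57 and 6.23 at 3 h and 5.27, 5.69 and 5.50 at 0 h. It rose by 0.94 on the log2 scale (SE 0.122, 95% interval 0.66 to 1.22, n = 3 each, adjusted p = 0.000471 in limma), or 1.92-fold, the same size as the strongest MXD4 reading. 11752262_a_at read 6.28, 6.15 and 6.20 at 3 h and 6.09, 6.10 and 5.93 at 0 h, a log2 difference of 0.17 that was not called (95% interval 0.01 to 0.34, adjusted p = 0.0732). The changes of these probe sets differed by 0.77 on the log2 scale within arrays (two-sided exact permutation p = 0.1, the smallest possible). The gene and the probe set were picked after their values were seen, so the p-value is no support for a difference. The average of the 2 probe sets rose by 0.56 (adjusted p = 0.000193 in limma).

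MGA, a very large protein that carries both a T-box and the MAX-binding region and builds the Polycomb complex PRC1.6, gave values of opposite sign on its 2 tested probe sets, 1 of them called. 11758283_s_at read 5.38, 5.17 and 5.54 at 3 h and 6.09, 5.98 and 5.94 at 0 h, and fell by 0.64 on the log2 scale (SE 0.096, 95% interval -0.86 to -0.42, n = 3 each, adjusted p = 0.000915 in limma), or 1.56-fold. 11743706_a_at read 5.88, 5.85 and 6.35 at 3 h and 5.66, 6.02 and 5.72 at 0 h, with overlapping groups and a difference of 0.23 (95% interval -0.11 to 0.56, adjusted p = 0.228). The gap between these changes was -0.87 within arrays (two-sided exact permutation p = 0.1, the smallest possible). Again the probe set was picked for its large change, so the p-value is no support for a difference. Averaged over all its probe sets, MGA stood at -0.14 (adjusted p = 0.105 in limma). That average includes 11751875_a_at, which lay under the floor with means of 4.56 at 3 h and 4.55 at 0 h. The suffix of 11758283_s_at marks probes that the platform regards as shared with transcripts of other genes.

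Genes around the network were read through lists chosen with earlier results of these data known, each gene by its highest-level probe set. Over all 12221 genes tested in this way, 49.7% were called, 19.9% higher and 29.8% lower, with a median log2 change of -0.04. Of 30 tested genes that MYC is known to activate, 9 rose, 3 fell and 18 were not called (median log2 change 0.02). CAD, which starts pyrimidine synthesis, rose by 0.44 (8.06 ± 0.07 at 3 h and 7.62 ± 0.10 at 0 h, log2 value, SD, n = 3 each), the cyclin-dependent kinase gene CDK4 by 0.39 and the ribosome assembly gene BOP1 by 0.24. POLR1B, a subunit of RNA polymerase I, fell by 0.51, PPAT, the first enzyme of purine synthesis, by 0.48 and the transferrin receptor gene TFRC by 0.24. The classical nucleolar targets NCL, NPM1 and FBL, named after their values were seen, stood at -0.07, -0.06 and 0.01 and were not called. Probe sets whose names lack _s_at and _x_at, the suffixes for shared and cross-hybridizing sets, are called specific here. On the highest-level specific probe set NCL was called higher at 0.23 and NPM1 lower at -0.18, and POLR1B stood at -0.17 and was not called. NOP16, a nucleolar protein gene named after its values were seen, was called higher at 0.18 but lower at -0.37 on that reading. Averaged over all probe sets, CDK4 stood at 0.02 and TFRC at -0.10, neither called, and POLR1B fell by 0.32. The count of 9 fell to 3 or 4 when replicate 2 at 3 h or any 0 h array was left out (3 without replicate 2 at 3 h, and 3, 4 and 3 without replicates 1, 2 and 3 at 0 h). Of the 25 listed genes with a promoter window, 14 (56.0%) hold CACGTG, against 8.77% of all 27305 genes in that table. How the listed genes came to be known as targets was not examined here.

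Of 9 tested genes that MYC is known to repress, 5 rose and 1 fell (median log2 change 0.18). The growth factor receptor gene PDGFRB rose by 0.59, the stress-induced GADD45A by 0.28 and NDRG1 by 0.27, while CEBPD, a C/EBP transcription factor, fell by 0.55. Averaged over its probe sets PDGFRB rose by 0.25 and NDRG1 by 0.51, and on its specific probe set NDRG1 rose by 0.79. The matrix protein gene THBS1, named after its values were seen, was not called at 0.12 but rose by 0.67 as an average over its probe sets (adjusted p = 1.55e-05 in limma). The cell cycle inhibitor gene CDKN1A, likewise named, was called at 0.18 and stood at 0.02, not called, on its specific probe set. The count of 5 was 3 without replicate 1 at 3 h or replicate 1 or 2 at 0 h, and without a floor or with the replicate number as a block.

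The coactivators that MYC recruits moved in both directions, with 6 of 12 higher and 2 lower (median log2 change 0.14). HCFC1, the host cell factor that binds MYC, rose by 0.99 (8.21 ± 0.11 at 3 h and 7.22 ± 0.10 at 0 h, SD, n = 3 each), and its average over probe sets by 0.42. WDR5, a chromatin scaffold that helps MYC find its targets, rose by 0.59 and the acetyltransferase gene KAT5 by 0.49. ACTL6A, an actin-like subunit of chromatin complexes, fell by 0.48 and the nucleosome remodeller gene BPTF by 0.47, or by 0.28 as an average over its probe sets. Among 10 tested regulators of MYC protein stability and the MYC partner MIZ1 (ZBTB17), 4 rose and 3 fell (median log2 change -0.02). The deubiquitinase gene USP36 rose by 0.49, the kinase gene PIM1, whose product stabilises MYC, by 0.48 and the ubiquitin ligase gene HUWE1 by 0.46. PIM1 stood at 0.29 on its specific probe set and HUWE1 at 0.22 averaged over its probe sets, both still called. CIP2A, an inhibitor of the phosphatase PP2A, fell by 0.42, and PPP2R5A, a PP2A subunit, fell by 0.34 but stood at 0.22, not called, on its specific probe set.

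The corepressor side and the neighbouring MLX branch were mixed too. Of 14 tested genes of the SIN3 corepressor, 2 rose and 4 fell (median log2 change -0.08), with SAP130 up by 0.39 and RBBP4 by 0.18, while ARID4B, SAP30 and ING2 had changes of -0.49, -0.33 and -0.31. On specific probe sets, ARID4B stood at 0.14 and RBBP4 at -0.01, neither called, while averages over probe sets were -0.07 for SAP30, not called, and 0.60 for SAP130, called. The count of 2 became 1 when replicate 2 or 3 at 3 h or any single 0 h array was left out. MLX is a relative of MAX that also binds MXD1, MXD4 and MNT. Of 11 tested genes of the MLX branch, which shares the E-box, and of PRC1.6, the complex that MGA builds, 3 rose and 5 fell (median log2 change 0.07). MLXIP, a glucose-sensing partner of MLX, rose by 1.62, and its average over probe sets by 0.96. On specific probe sets, 3 of 8 genes of this list rose and 2 fell, against 3 and 5 of 11. RYBP, a PRC1 subunit gene named after its values were seen, was 1 of the 5 at -0.22, and stood at 0.26 on its specific probe set and 0.22 as an average, neither called. The PRC1.6 genes L3MBTL2 and TFDP1 rose by 0.49 and 0.21, while YAF2, PCGF6 and E2F6 had changes of -0.72, -0.45 and -0.32. On specific probe sets E2F6 stood at -0.76 and TFDP1 at 0.50, both called. Without replicate 1 at 0 h the count of falls in this list was 3.

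**Figure D3:**
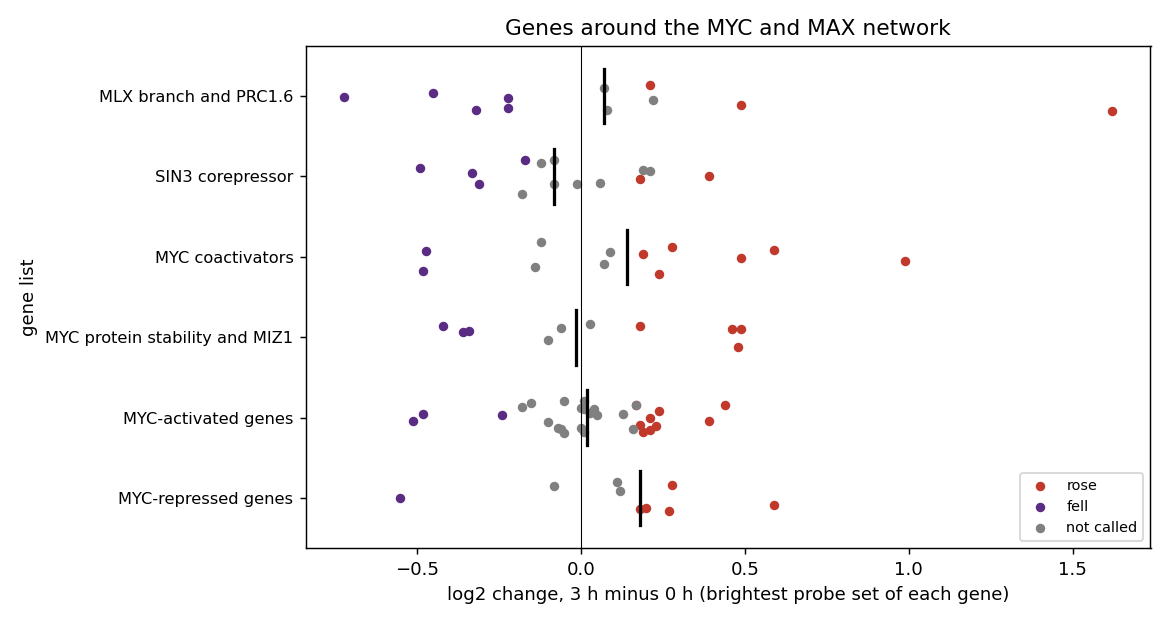
Log2 change (3 h minus 0 h, x axis) of every tested gene in 6 lists around the network, by its highest-level probe set, with colours for the call and a black bar at each list's median. Medians run from -0.08 (SIN3 corepressor) to 0.18 (MYC-repressed genes), and MLXIP lies farthest out at 1.62.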

How the data were processed

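RNA from 6 ARPE-19 samples was amplified with a 3′ IVT kit, biotin-labelled and hybridised to 1 Affymetrix array each, as the labels' protocols state. Values deposited by the authors are on a log2 scale, for 49372 probe sets, with medians of 5.30 to 5.34 per array (scale read from the values). MAS5 and RMA are named in the submitters' processing notes, with no version or role, and no filter is stated in the sources used here. Such values hide a change of total RNA.

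Groups came from the sample titles. Names came from the platform annotation (44988 probe sets with 1 symbol, 1832 with several, 2473 with none, 79 controls left out), and all 41 member symbols matched the RefSeq gene table. Members, lists and tests were chosen with earlier results of these data known. Probe sets with a mean at or above the 40th percentile (log2 4.64) were tested by limma 3.58.1 (lmFit, eBayes; R 4.3.3). P-values were adjusted by Benjamini-Hochberg over all 29576, at a threshold of 0.05. "Rose" and "fell" are used of calls only. The step was tested on simulated data. All members are named, and from each list the calls without overlap that changed most, 3 at most in each direction, and the 3 profiles closest to MYC and to MAX. Levels were ranked among a gene's probe sets to order them and pick the highest, and summed over marker lists; probe affinity differs between probe sets and bears on both. Probe set names ending in _s_at or _x_at mark sets the platform regards as shared or cross-hybridizing. Alternatives covered normalization, floor, moderation, array weights, the replicate block, thresholds, choice of probe set and leaving out each array. Precision is limited by the number of arrays. The within-array differences between probe sets of 1 gene, and the list counts under other settings, were chosen after seeing the data. Each such difference set the tested probe set that changed most against the highest-level other one, in genes picked after their values were seen. A gap was thus favoured in advance, and the p-values of these differences support no conclusion. Figures were drawn with matplotlib 3.10.9.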

Additional observations from a re-analysis of the deposited data

How the results depend on the processing

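Of the 7 member probe sets that rose, those of MYC and MNT and the MXD4 probe sets 11747171_a_at and 11736489_a_at were called under every refit that held them, as were the 2 that fell, MAX 11728150_at and MGA 11758283_s_at. Without a floor 7 rose and 2 fell, but 5 of those rises were shared with the fit above the floor, the other 2 being dim probe sets of MXD1 and MYCN. With the floor at the 60th percentile (log2 6.03), 14 member probe sets were tested. Of these, 8 rose in limma and 0 fell (0 also at an unadjusted p under 0.05). Over all probe sets 5769 rose and 6359 fell. Their share of the probe sets tested at this floor is not given here. Both member probe sets that had fallen were no longer tested. Nor were MNT 11744056_at, MXD4 11747171_a_at and MXD4 11763312_at, which had risen (means of 5.96, 5.91 and 5.73). MAX 11729189_x_at and 11733721_s_at, MXD4 11754299_a_at and MNT 11752262_a_at were called higher at this floor but not with the floor of 4.64. Their adjusted p-values in limma were 0.0289 to 0.0469. At an adjusted p under 0.01, 4 rose and 2 fell, against 5220 and 5149 of all probe sets. With a change of at least 1.5-fold, 2 rose and 1 fell, and over all probe sets 1987 rose and 1334 fell. Leaving out each array in turn gave 4 to 7 members higher, the lowest without replicate 1 at 0 h, and 2 lower each time; over all probe sets it gave 6228 to 7241 higher and 6066 to 7458 lower. With the replicate number as a block, 6 members rose and 2 fell, against 6892 and 6970 of all probe sets. Deviations of arrays with the same number had correlations of -0.008, -0.035 and -0.192, against -0.166 to 0.2 for different numbers. With 3 arrays per group, each centred on its group mean, such values cannot show whether the numbers pair samples.

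Some members that were not called changed sign. MAX 11754160_x_at (0.01) stood at -0.02 with quantile normalization, -0.03 with median centring, and -0.06 to 0.08 when an array was left out. Leaving out an array gave -0.13 to 0.08 for MXI1 11730843_a_at, -0.15 to 0.09 for MXI1 11739744_x_at, -0.01 to 0.17 for MXD3 11725748_a_at and -0.16 to 0.04 for MXD1 11719249_at. Averaged over all probe sets, MAX stood at 0.06, MXD1 at 0.19 and MGA at -0.14, and on its specific probe set MAX stood at 0.12. The cause was not tested. The MYC-activated count of 9 was 3 without a floor, 5 with median centring and 5 with the replicate block.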

Other observations

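A pair of probe sets carries MXD3 together with RAB24, the gene of a small GTPase, and was not counted among the members. 11756309_x_at read 6.82, 6.83 and 6.78 at 3 h and 7.09, 7.06 and 7.14 at 0 h, and fell by 0.29 on the log2 scale (adjusted p = 0.00323 in limma). 11724089_a_at read 5.84, 5.87 and 5.99 at 3 h and 5.98, 5.88 and 6.0 at 0 h, with overlapping groups. Which of the genes gave the signal cannot be read from these probe sets.

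Among the members under the floor, MXD1 11750016_a_at read 4.13, 3.99 and 4.12 at 3 h and 3.55, 3.86 and 3.46 at 0 h, a difference of 0.46 on the log2 scale without overlap. In the fit without a floor it was called (adjusted p = 0.013 in limma), while the tested MXD1 probe set stood at -0.07. MYCN 11719868_a_at, at 4.48 at 3 h and 4.25 at 0 h on average, was called in that fit too (adjusted p = 0.0442).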
